A study of Mus musculus with 14 samples.

Results

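The 10 genes of epithelial cell junctions and of the epithelial programme were read in mouse tail fibroblasts and in cultures reprogrammed from them: Cdh1, Epcam, Cldn3, Cldn4, Cldn6, Cldn7, Ocln, Tjp3, Esrp1 and Grhl2. They were listed by name as epithelial adhesion, junction and splicing genes, and are 10 of the 22026 genes in the RNA tables, where all 10 were found. RNA sequencing gave 1 library each of fibroblasts labelled wildtype, fibroblasts labelled AID-null, and cultures of each label 3 weeks into reprogramming by ectopic Oct4, Sox2, Klf4 and cMyc. Reduced representation bisulfite sequencing (RRBS), which reads CpG methylation mostly in CpG-rich DNA, gave 1 library of each of these 4 groups and 3 libraries per label of clones, which were picked at week 2 and read after week 3. The labels give no age, strain or sex, and do not say how many animals were used, whether clones came from separate cultures, or which promoter drove the 4 factors. The 3-week cultures are bulk cultures, and no RNA library of a clone was analysed here.

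Xist, the RNA of the inactive X, was at 456 FPKM (fragments per kilobase of transcript, corrected for library depth) in fibroblasts and 149 at 3 weeks where the label was wildtype, and at 0.99 and 1.78 where it was AID-null. For the Y-linked Eif2s3y the order was the reverse, 184 and 274 FPKM where the label was AID-null and 0 where it was wildtype. Genotype and sex therefore cannot be told apart in the RNA, and libraries are named below by their labels. The RRBS libraries carry the same labels, and their sex was not checked. Differences in methylation between the labels may therefore also combine genotype and sex. Col1a1, a fibroblast collagen, was at 26380 and 30840 FPKM in the 2 fibroblast libraries and at 159 and 1143 FPKM at 3 weeks. Pou5f1, the pluripotency gene that encodes Oct4, was at 2.32 and 2.26 FPKM in fibroblasts and at 2390 and 1539 FPKM at 3 weeks, where reads of the introduced copy cannot be told apart from its own.

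Epithelial cells hold together through adherens junctions, built on E-cadherin, and through tight junctions, in which claudins and occludin span the membrane and zonula occludens proteins tie them to the cytoskeleton. Fibroblasts lack tight junctions and contacts built on E-cadherin. Repressors of the Snail and Zeb families silence E-cadherin and other epithelial genes in mesenchymal cells by binding E-boxes of the sequence CACCTG. Reprogramming of fibroblasts towards pluripotency passes through a mesenchymal-epithelial transition, in which this programme is reversed.

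The promoter sequences of the genes are shown first because the methylation values below were read on their CpGs. RefSeq windows of GRCm38.p6, from 250 bases before to 50 after a transcript start, were given for 7 of the 10 genes, in 10 windows: Cldn3, Cldn4, Cldn6, Cldn7, Epcam, Ocln and Tjp3. Cdh1, Esrp1 and Grhl2 had none. The 250 bases before the start follow 5′ to 3′ on the strand of the gene, for Epcam at chr17:87635729-87635978 on the plus strand, Cldn7 at chr11:69965171-69965420 on the plus strand and Ocln at chr13:100552499-100552748 on the minus strand. Capitals mark the CpGs that RRBS read in at least 1 library.
Epcam: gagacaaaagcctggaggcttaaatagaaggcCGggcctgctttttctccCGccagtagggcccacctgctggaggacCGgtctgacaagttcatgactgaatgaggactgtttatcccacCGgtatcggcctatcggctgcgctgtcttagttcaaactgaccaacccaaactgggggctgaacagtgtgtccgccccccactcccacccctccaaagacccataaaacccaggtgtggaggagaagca
Cldn7: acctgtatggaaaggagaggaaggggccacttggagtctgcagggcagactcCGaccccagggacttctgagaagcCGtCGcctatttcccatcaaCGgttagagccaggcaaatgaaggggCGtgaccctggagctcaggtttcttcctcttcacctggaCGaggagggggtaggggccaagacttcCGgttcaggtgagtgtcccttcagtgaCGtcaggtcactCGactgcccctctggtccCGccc
Ocln: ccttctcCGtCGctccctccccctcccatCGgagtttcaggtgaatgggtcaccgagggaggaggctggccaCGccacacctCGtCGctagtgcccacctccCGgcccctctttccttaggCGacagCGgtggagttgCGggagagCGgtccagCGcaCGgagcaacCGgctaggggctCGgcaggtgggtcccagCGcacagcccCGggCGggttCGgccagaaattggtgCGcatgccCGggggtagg
The Epcam window, with 11 CpGs in all 300 bases, was read at 5 of them. The Cldn7 window shown was read at all of its 17 CpGs and the Ocln window shown at 23 of 24. The median RefSeq window held 7 CpGs, and the median of the windows on which methylation could be read held 24.

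The E-box CACCTG was searched on both strands, where it reads CACCTG or CAGGTG. It was in 9 of the 10 windows of these genes and in 20.2% of all 32851 windows. Every one of the 7 genes had it in at least 1 window. Some of these windows overlap or belong to the same gene, and a match is a description of the letters, not a site of binding. Cldn4 and Cldn6 are shown with the motif in capitals, Cldn4 at chr5:134946935-134947184 on the minus strand and Cldn6 at chr17:23679115-23679364 on the plus strand, both of GRCm38.p6 and from RefSeq.
Cldn4: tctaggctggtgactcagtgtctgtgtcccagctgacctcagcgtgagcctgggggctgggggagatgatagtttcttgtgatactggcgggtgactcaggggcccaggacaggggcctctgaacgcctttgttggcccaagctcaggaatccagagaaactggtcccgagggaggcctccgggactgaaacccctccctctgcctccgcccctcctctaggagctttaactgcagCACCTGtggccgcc
Cldn6: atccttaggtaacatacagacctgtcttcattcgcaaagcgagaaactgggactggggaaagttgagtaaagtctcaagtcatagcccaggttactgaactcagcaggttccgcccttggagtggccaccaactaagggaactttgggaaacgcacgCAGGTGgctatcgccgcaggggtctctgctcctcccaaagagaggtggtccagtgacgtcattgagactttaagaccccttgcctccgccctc
Counted from the transcript start as 0, the motif began at -14 in Cldn4 and at -93 in Cldn6, and again inside the transcript at 11 and 40. In the Epcam window it began at -187 and -19, and in the Cldn7 window at -97 and -57. The 8-base grainyhead-type motif AACCGGTT was in 0 of the 10 windows and in 0.146% of all windows. Its core CCGG, which is also the site cut by the enzyme MspI commonly used for RRBS, was in 8 of the 10 and in 52.8% of all.

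In the RNA, all 10 genes were low or listed at 0 in both fibroblast libraries and all 10 were present at 3 weeks under both labels. No RNA value has a replicate, so no test was made on them, and the RNA depth is unknown. In a bulk culture, fewer cells expressing a gene and less RNA per cell cannot be told apart. Of the 10 genes, 8 were listed at 0 FPKM in the fibroblasts labelled wildtype and 7 in those labelled AID-null, against 36.1% and 35.4% of all genes. None was at 0 at 3 weeks. The median of the 10 was 0 FPKM in both fibroblast libraries, 73.0 FPKM at 3 weeks under the wildtype label and 97.3 under the AID-null label. The median over all genes was 8.60 to 11.1 FPKM in the 4 libraries.

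**Figure D1:**
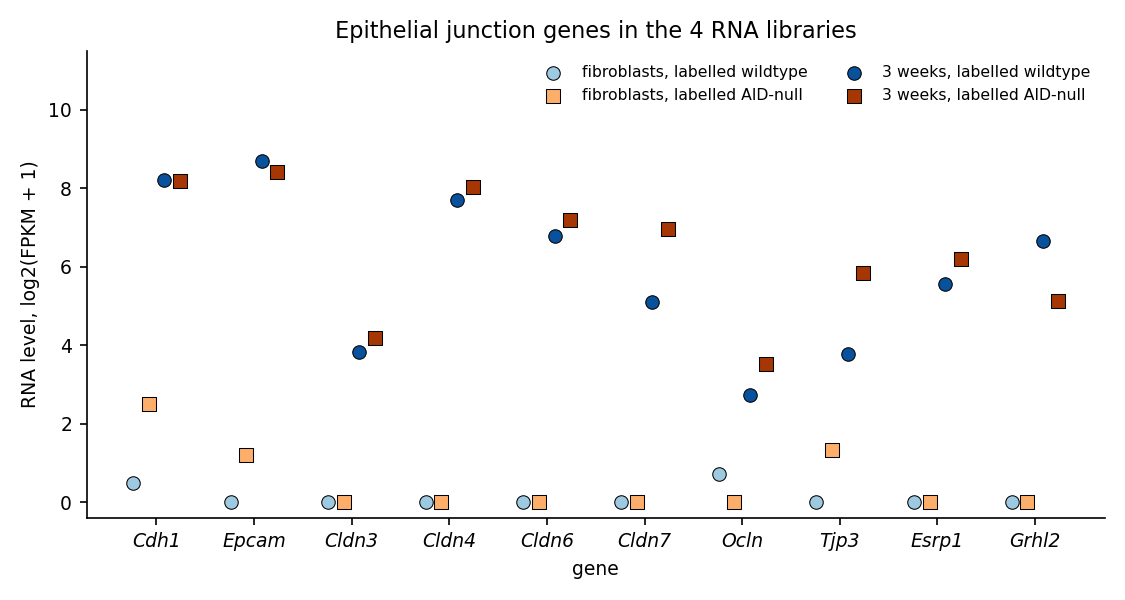
RNA level of each gene on the log2(FPKM + 1) scale (vertical axis) in the 4 RNA libraries, circles for libraries labelled wildtype and squares for AID-null, light for fibroblasts and dark for 3 weeks. Each point is 1 library; every dark point lies above both light points of its gene, and the labels differ most at 3 weeks for Cldn7, Tjp3 and Grhl2.

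Differences are in units of log2(FPKM + 1), a scale that compresses the changes of weakly expressed genes. A gene is called higher or lower here when 2 libraries differ by 1 or more. From fibroblasts to 3 weeks, 10 of 10 genes were higher under the wildtype label, where 27% of the 15196 genes that reached 1 FPKM in one of the 2 libraries were higher. All 10 were also higher under the AID-null label, where 21.3% of 15076 genes were. The median difference was 6.11 under the wildtype label, against 0.16 for the genes so tested, and 5.93 under the AID-null label, against -0.05.

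The 2 adhesion molecules had the highest levels at 3 weeks. Epcam encodes a homophilic adhesion protein of epithelia that embryonic stem cells also carry. It was listed at 0 FPKM in the fibroblasts labelled wildtype, and stood at 1.31 in those labelled AID-null, at 415 at 3 weeks under the wildtype label and at 337 under the AID-null label. These values differ by 8.70 and 7.19 from fibroblasts to 3 weeks on the log2 scale. Cdh1 encodes E-cadherin, the adherens junction cadherin. It was at 0.41 FPKM in the fibroblasts labelled wildtype, 4.67 in those labelled AID-null, 296 at 3 weeks under the wildtype label and 289 under the AID-null label. Both 3-week libraries lay far above both fibroblast libraries, and the 2 labels were within 0.03 of each other at 3 weeks.

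The 4 claudins, the strand-forming proteins of tight junctions, were all listed at 0 FPKM in both fibroblast libraries. Cldn4 stood at 206 FPKM at 3 weeks under the wildtype label and at 260 under the AID-null label. Cldn6, a claudin of embryonic epithelia and pluripotent cells, was at 109 and 145 FPKM in the same order. Cldn3 was the lowest of the 4 under both labels, at 13.1 and 17.2 FPKM. For these 3 genes the labels differed by 0.34 to 0.40 on the log2 scale. Cldn7 stood apart, at 33.4 FPKM under the wildtype label and 123 under the AID-null label, a 3.67-fold difference between the 2 libraries.

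Ocln and Tjp3 complete the tight junction. Ocln, which encodes occludin, was the lowest of the 10 genes at 3 weeks, at 5.62 FPKM under the wildtype label and 10.5 under the AID-null label. In fibroblasts it was at 0.63 FPKM under the wildtype label and listed at 0 under the AID-null label. Tjp3, which encodes the scaffold protein ZO-3, was listed at 0 in the fibroblasts labelled wildtype and at 1.51 FPKM in those labelled AID-null. At 3 weeks it was at 12.8 FPKM under the wildtype label and 56.4 under the AID-null label, 4.41 times as high.

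The 2 regulators were listed at 0 FPKM in both fibroblast libraries. Esrp1, an RNA-binding protein that directs epithelial splicing, stood at 46.4 FPKM at 3 weeks under the wildtype label and 72.0 under the AID-null label. Grhl2, a grainyhead-family transcription factor that activates Cdh1 and claudin genes in epithelia, was at 99.6 and 33.7 FPKM. Grhl2 was the 1 gene of the 10 that was lower by at least 1 under the AID-null label, 2.95-fold.

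Since FPKM is scaled to transcript length, levels can be ordered across genes within a library. Epcam, Cdh1, Cldn4 and Cldn6 were ranks 1 to 4 in both 3-week libraries. Grhl2 had rank 5 of 10 under the wildtype label and rank 8 under the AID-null label, Cldn7 ranks 7 and 5, and Tjp3 ranks 9 and 7. Without replicates it cannot be said which neighbours in these orders differ.

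The labels were then compared within each state. In fibroblasts, 3 of the 10 genes reached 1 FPKM in either library, each through the library labelled AID-null, and these 3 were higher under that label: Cdh1 with a difference of 2.01, Tjp3 with 1.33 and Epcam with 1.21. Of 13788 genes tested, 4.26% were higher and 1.34% lower. With all 10 genes under 1 FPKM in the fibroblasts labelled wildtype, none could be called lower, and nothing is read from these shares. All 3 were under 5 FPKM in both libraries, and with a pseudocount of 5 in place of 1 none of the 10 was higher. At 3 weeks, Cldn7 (1.85) and Tjp3 (2.06) were higher under the AID-null label and Grhl2 (-1.54) was lower, so that 2 of 10 were higher and 1 of 10 lower, where 9.76% and 11.6% of the 15204 genes tested were. The other 7 lay between, and the median of the 10 was 0.38, against -0.18 for the genes tested.

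**Figure D2:**
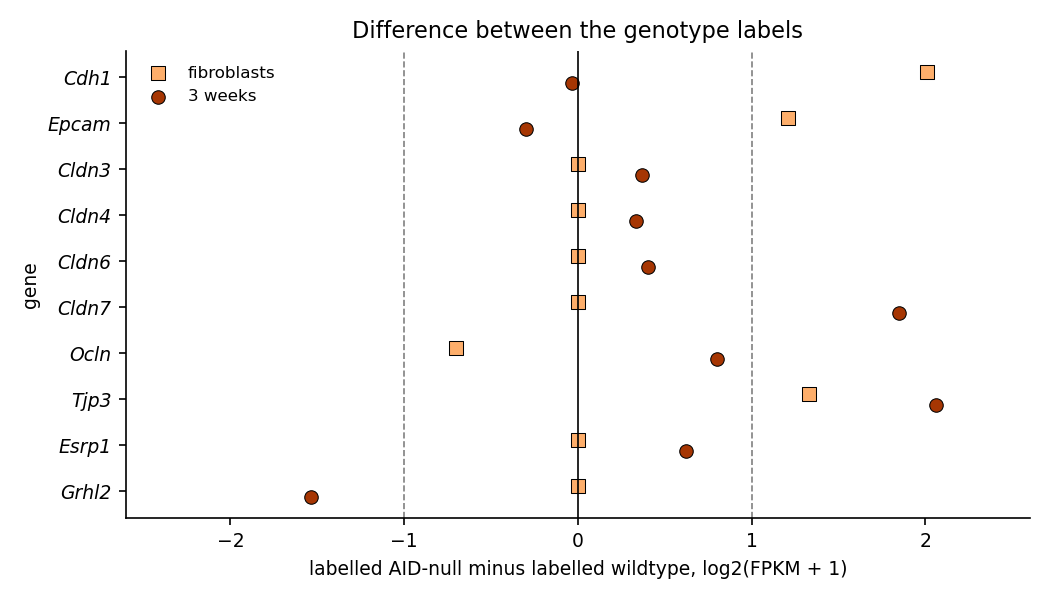
Difference between the 2 labels for each gene on the log2(FPKM + 1) scale (horizontal axis, AID-null minus wildtype), squares for fibroblasts and circles for 3 weeks; dashed lines mark a difference of 1. Each point compares 1 library with 1 library; Cdh1 and Epcam lie right of the line in fibroblasts only, and Cldn7, Tjp3 and Grhl2 lie outside the lines at 3 weeks.

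The same 4 libraries give the difference between the 2 reprogramming changes, AID-null minus wildtype. It was at least 1 for Cldn7 (1.85) and Ocln (1.51), where 9.68% of the 15624 genes tested were, and at most -1 for Cdh1 (-2.04), Grhl2 (-1.54) and Epcam (-1.51), where 13.9% were. For Cdh1 and Epcam the difference rests on the fibroblast values given above, and for Ocln it does in part. With a pseudocount of 5, Ocln had 0.72 and was no longer called, and Tjp3 had 1.41 in place of 0.73. Cdh1 and Epcam were no longer called either, and Grhl2 still was.

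Markers of other cells moved with the labels. At 3 weeks, 11 of 12 fibroblast markers were higher under the AID-null label, by a median of 2.01, and none of them was lower. The summed level of the 12 was 75140 and 87330 FPKM in the fibroblasts labelled wildtype and AID-null, and 2626 and 11010 FPKM at 3 weeks. Of 12 macrophage markers 9 were higher under the AID-null label at 3 weeks and 11 in fibroblasts. Their summed level was 1691 and 2969 FPKM in fibroblasts and 639 and 1585 FPKM at 3 weeks, and Ptprc, Tyrobp, C1qa, C1qb, C1qc and Emr1, listed at 0 at 3 weeks under the wildtype label, were at 4.48 to 48.2 FPKM under the AID-null label. Lyz2 was the largest part of the sum in both fibroblast libraries, at 1240 and 1466 FPKM, where its difference of 0.24 was not called. At 3 weeks Lyz2 was at 38.4 FPKM under the wildtype label and 903 under the AID-null label. Cd14, Laptm5 and Cd68, at 219, 265 and 112 FPKM, made up most of the sum at 3 weeks under the wildtype label, and where the label was AID-null they had 147, 184 and 193 FPKM. Of 16 keratinocyte markers 9 were lower under the AID-null label at 3 weeks and 0 higher, with sums of 656 and 203 FPKM there and 30.7 and 24.1 in fibroblasts. Of the defining keratins, Krt5 was at 1.04 and 0.55 FPKM and Krt14 at 17.6 and 1.74 FPKM at 3 weeks, and both were listed at 0 in the fibroblasts labelled AID-null. Krt6b, Krt17 and Krt6a differed most, at 96.2, 85.8 and 33.3 FPKM at 3 weeks under the wildtype label and 0, 9.42 and 0 under the AID-null label. Perp, Itgb4 and Sfn made up most of the sum under the AID-null label, at 83.1, 61.9 and 39.1 FPKM, and were at 275, 69.6 and 54.2 FPKM under the wildtype label. All 4 simple epithelial keratins, Krt7, Krt8, Krt18 and Krt19, were higher under the AID-null label in fibroblasts, where their sum was 1.14 FPKM under the wildtype label and 103 under the AID-null label. At 3 weeks the sums of the 4 keratins were 266 and 412 FPKM. The part of any of these cells in the differences of the 10 genes was not tested.

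Other genes of the same junctions were read from lists written with earlier results of these data known. Of 15 measured scaffold and polarity genes of tight junctions, 9 were higher and 1 was lower at 3 weeks under each label. Among all genes tested, 27% were higher and 17.7% lower under the wildtype label, and 21.3% and 17.6% under the AID-null label. Crb3, a polarity protein of the apical membrane, was listed at 0 in both fibroblast libraries and stood at 61.2 and 65.8 FPKM at 3 weeks under the wildtype and AID-null labels. F11r, the junctional adhesion molecule JAM-A, was at 5.01 and 5.60 FPKM in fibroblasts and at 106 and 115 FPKM at 3 weeks. Tjp1, which encodes ZO-1, was present in fibroblasts at 211 and 233 FPKM and at 158 and 146 FPKM at 3 weeks. Magi3 was lower under both labels. Between the labels at 3 weeks, Cgn, which encodes cingulin, was the 1 gene of the 15 past a difference of 1, at 15.9 FPKM under the wildtype label and 34.5 under the AID-null label.

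Most of the other claudins did not follow Cldn3, Cldn4, Cldn6 and Cldn7. Of 18 measured, 10 reached 1 FPKM in one of the 2 libraries labelled wildtype, and 3 of these were higher and 2 lower at 3 weeks. Under the AID-null label 9 did, and 3 of these were higher and 3 lower. The shares of all genes tested were 27% and 21.3% higher and 17.7% and 17.6% lower. Cldn12 was the highest in every library, at 58.4 to 75.1 FPKM, and Cldn8, Cldn13, Cldn14, Cldn16 and Cldn24 were listed at 0 in all 4. Of 10 adherens junction partners, 4 were higher and 1 lower under the wildtype label, and 3 and 1 under the AID-null label. These counts are near the shares of all genes given above. Ctnnb1, the beta-catenin that binds E-cadherin, was at 1164 and 1268 FPKM in fibroblasts and at 1801 and 1105 FPKM at 3 weeks. Ctnna1 and Ctnnd1, 2 further catenins, were at 322 to 599.6 FPKM in the 4 libraries. Jup, which encodes gamma-catenin, was at 39.3 and 42.8 FPKM in fibroblasts and at 109 and 115 FPKM at 3 weeks. These catenins were present in fibroblasts while Cdh1 was below 5 FPKM. The cadherins Cdh2 and Cdh11 were present there as well, Cdh2 at 180 and 170 FPKM and Cdh11 at 918 and 1035 FPKM. Cdh3, which encodes P-cadherin, was the partner that was lower, from 37.2 to 12.0 FPKM under the wildtype label and from 56.3 to 24.6 under the AID-null label.

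Desmosomes, the junctions that anchor keratin filaments, were read in the same way. Of 8 desmosome genes, 7 were higher at 3 weeks under the wildtype label and 8 under the AID-null label. The shares of all genes tested were 27% and 21.3%. Dsp, which encodes desmoplakin, was at 0.83 and 0.75 FPKM in the 2 fibroblast libraries and at 31.6 and 24.2 FPKM at 3 weeks. At 3 weeks Dsg2 and Dsc2, the desmosomal cadherins, were lower under the AID-null label, Dsg2 at 92.7 and 30.2 FPKM and Dsc2 at 19.4 and 7.70 FPKM. The plaque genes Pkp2 and Ppl were higher there, Pkp2 at 32.2 and 86.5 FPKM.

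Of 9 further epithelial regulators of transcription and splicing, 9 were higher at 3 weeks under the wildtype label and 7 under the AID-null label. The shares of all genes tested were 27% and 21.3%. Grhl3, the relative of Grhl2, was listed at 0 in fibroblasts and stood at 35.1 FPKM at 3 weeks under the wildtype label and 57.3 under the AID-null label, the opposite order to Grhl2. Ehf, an ETS factor of epithelia, was at 10.9 FPKM at 3 weeks under the wildtype label and 0.47 under the AID-null label. Of 10 mesenchymal cadherins, repressors and related genes, none was higher at 3 weeks. Of them, 9 were lower under the wildtype label and 5 under the AID-null label, against 17.7% and 17.6% of all genes tested. Snai2, a repressor of Cdh1, was at 379 and 442 FPKM in fibroblasts and at 45.2 and 109 FPKM at 3 weeks. Zeb1, another repressor of Cdh1, was at 146 and 143 FPKM and then at 42.8 and 110 FPKM. Vim, which encodes vimentin, was at 2260 FPKM at 3 weeks under the wildtype label and 9263 under the AID-null label. Between the labels at 3 weeks, 3 of these 10 genes, Snai2, Zeb1 and Vim, were higher by at least 1 under the AID-null label. None was lower by as much, and 9.76% of all genes tested were higher. Zeb2 and Cdh2 had the other sign, at -0.46 and -0.68. Cdh1 differed by -0.03, and a link between these genes and Cdh1 was not tested.

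The 5 other genes nearest to the median profile of the 10, by Euclidean distance over the 4 libraries on the log2 scale, were Ap1m2 (0.03), Cox7b2 (0.08), Tuba3a (0.28), 2410076I21Rik (0.34) and Spint1 (0.48). All 5 were listed at 0 in both fibroblast libraries. Ap1m2, a clathrin adaptor subunit of epithelial sorting, was at 68.2 FPKM at 3 weeks under the wildtype label and 91.9 under the AID-null label. The median profile itself was at 0, 0, 68.0 and 94.0 FPKM.

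Promoter methylation could be read for 5 of the 10 genes, Epcam, Cldn3, Cldn4, Cldn7 and Ocln. The RRBS positions are on mm9, and the windows were placed on them by the spacing and strand of the CpGs alone, with no coordinate conversion. The windows of Tjp3 had tied matches, and the best match of Cldn6, 6 positions against 5 for the next, did not pass the check against neighbouring windows. A second Cldn7 window, at 69964529, matched at 5 positions where at least 6 were needed. Cldn7 was therefore read in 1 of its 2 windows. RRBS coverage, summed over CpG positions, was 222945430 to 296572452 per library, a sum in which a read over several CpGs counts once for each. A level is the share of methylated reads over all reads of the CpG positions in a window, with a 95% Wilson interval that covers counting error only.

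Of the 5 promoters, that of Epcam had the highest level in fibroblasts. Its level was 21.8% (101 of 463 reads, interval 18.3% to 25.8%) under the wildtype label and 37.8% (94 of 249 reads, 32.0% to 43.9%) under the AID-null label. At 3 weeks 2 positions were read, and the level was 0 of 56 reads under the wildtype label, which allows up to 5.36% by a floor of 3 reads and 6.42% by the Wilson interval, and 15.1% (16 of 106 reads, 9.51% to 23.1%) under the AID-null label. The intervals of the 2 labels did not overlap in either state, but each compares 1 library with 1 library. They are also too narrow where a read was counted at several CpGs. In the clones it was 3.38%, 0% and 0.658% under the wildtype label and 0%, 0.531% and 6.38% under the AID-null label. By summed reads every clone was below both fibroblast libraries, and the highest clone value includes 1 CpG at 46 that was read 10 times, in that clone alone, and methylated in all 10 reads. With each CpG weighted equally that clone was at 24.7%, above the 22.6% of the fibroblasts labelled wildtype.

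**Figure D3:**
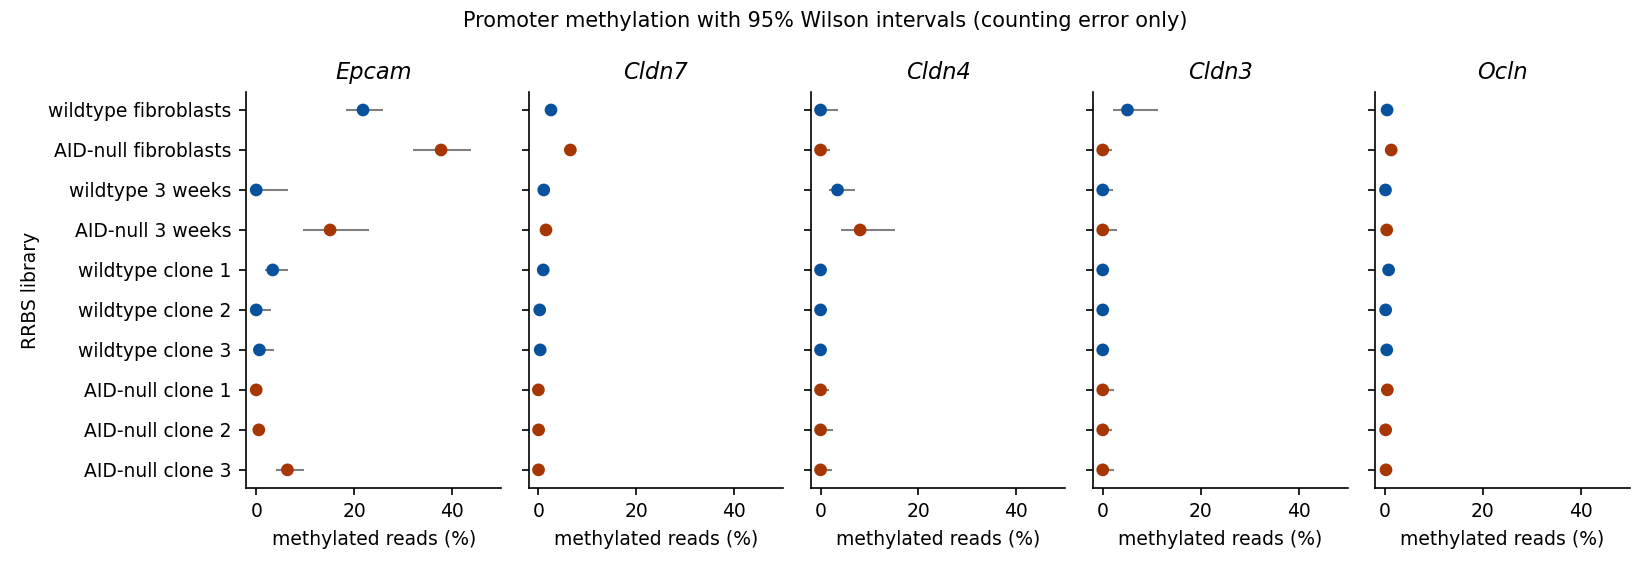
Methylated reads as a percent of all reads (horizontal axis) in the placed promoter window of each gene, for each of the 10 RRBS libraries named by label (rows), blue for wildtype and red for AID-null; lines are 95% Wilson intervals. Epcam stands at 21.8% and 37.8% in the 2 fibroblast libraries, and the other 4 promoters are at 8.08% or below in every library.

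Over the positions that both sides share, the Epcam level was 27.4% in the fibroblasts labelled wildtype and a mean of 1.34% in the 3 clones of that label (4 positions), and 41.8% and 1.34% under the AID-null label (4 positions). Over these positions, Epcam was the 1 of the 6 placed windows above 25% in fibroblasts under each label. Over all its reads it was at 21.8% under the wildtype label, below 25%. Read over all their positions, 6.61% and 5.10% of all placed windows were at 25% or more in the 2 fibroblast libraries. Epcam was also the 1 lower by at least 25 points in the clones, under each label, where 3.77% and 2.01% of all placed windows were that much lower. Placed windows held a median of 24 CpGs, and that of Epcam 11. Under the wildtype label the difference was -26.0 points and rested in part on the CpGs at -218 and -200, read 12 to 16 times in each clone. With a coverage of at least 30 per CpG, which left 2 positions, it was -12.8 points (14.1% and 1.26%) under the wildtype label and -25.9 points (26.9% and 0.945%) under the AID-null label. Over the 2 positions shared with the 3-week cultures, Epcam was at 14.1% in fibroblasts and 0% at 3 weeks under the wildtype label, and at 26.9% and 15.1% under the AID-null label. Between the labels it was 15.9 points higher under the AID-null label in fibroblasts (6 positions) and 15.1 points higher at 3 weeks (2 positions). These comparisons share their fibroblast libraries.

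Within the Epcam window, the CpGs at -218, -200, -172 and -129 were the ones read in fibroblasts, and each had methylated reads. At -200 the level was 63.5% of 63 reads in the fibroblasts labelled wildtype and 86.5% of 52 reads in those labelled AID-null, and 0 to 6.25% in the 6 clones. At -218 it was 42.6% and 28.3% on the strand of the gene, and 0 of 31 and 0 of 10 reads on the other strand. At -172 it was 16.0% and 37.7% on the strand of the gene and 1.49% and 19.2% on the other. The E-box at -187 lies between the CpGs at -200 and -172.

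**Figure D4:**
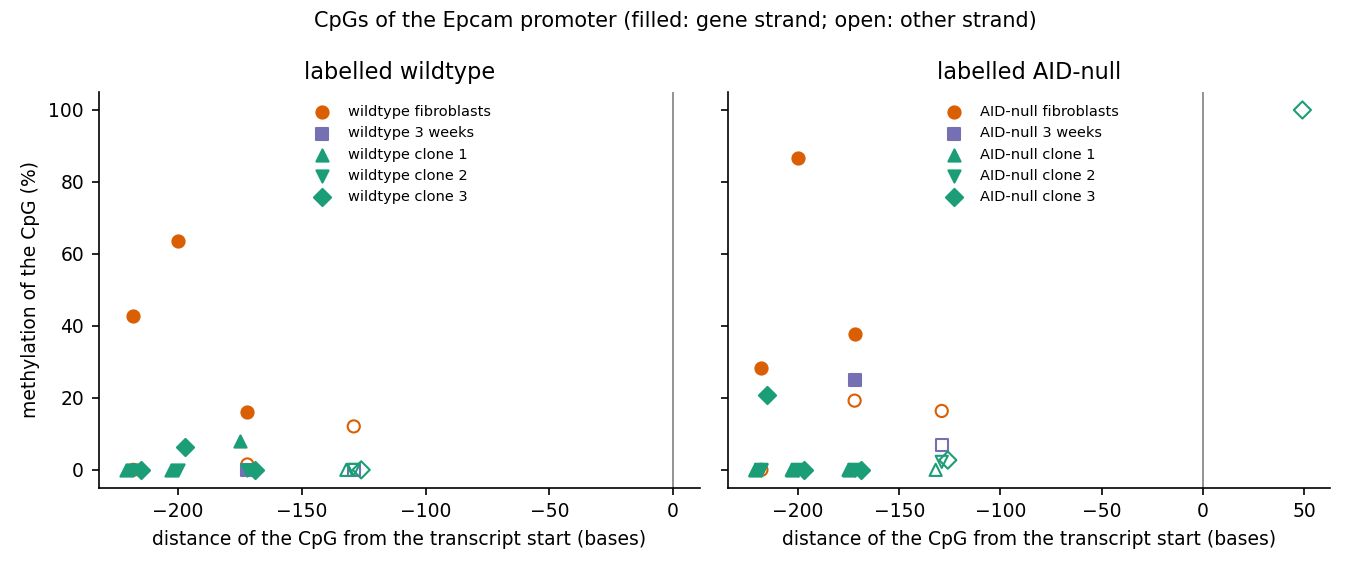
Methylation of each CpG of the Epcam promoter (vertical axis, percent) by its distance from the transcript start in bases, libraries labelled wildtype on the left and AID-null on the right; filled symbols are the strand of the gene and open ones the other strand, and clone symbols are shifted sideways by up to 3 bases. The fibroblast CpG at -200 stands at 63.5% and 86.5%, and the clone points lie at 8.08% or below apart from clone 3 labelled AID-null at -218 and at 46.

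The placed windows of the other 4 genes were low in fibroblasts, where these genes were listed at 0 or below 1 FPKM. Cldn7 was at 2.58% (43 of 1670 reads) under the wildtype label and 6.53% (149 of 2282 reads) under the AID-null label, at 1.10% and 1.55% at 3 weeks, and at 0 to 0.989% in the 6 clones. In the fibroblasts labelled AID-null, the Cldn7 reads were uneven: 18 of 22 were methylated at 30, 65.9% at -5 (coverage 46) and 0 of 224 at -62. Ocln was at 0.121% to 1.28% in all 10 libraries, and its overlapping second window at 0 to 2.49%. Cldn4 was at 0 in both fibroblast libraries and all 6 clones, and at 3.47% and 8.08% at 3 weeks under the wildtype and AID-null labels. Where it was at 0, its 107 to 370 reads allow up to 0.811% to 2.80% by the floor of 3 reads and 1.03% to 3.47% by the Wilson interval. In the fibroblasts labelled wildtype, 2 of its 9 CpGs were read, 53 and 54 times on the same strand. A read over both counts at each, and the bounds are then too low. Cldn3 was read at 3 of its 9 CpGs in fibroblasts. Its level was 5.05% (5 of 99 reads) in the fibroblasts labelled wildtype, all 5 at 1 CpG, and 0 in the other 9 libraries. Low levels were the rule, since 91.3% to 94.6% of all placed windows were under 10% in each library.

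The clones were the only groups with replicates. Limma on the log2 ratio of methylated to unmethylated reads called 2 of 9115 windows between the labels at an adjusted p under 0.05, 0.0219%, and none of the 5 windows tested for these genes; 807 windows had an unadjusted p under 0.05. Cldn7 was at 0.520% ± 0.419 (SD, n = 3) under the wildtype label and 0.0281% ± 0.0257 (SD, n = 3) under the AID-null label. All 3 clones labelled wildtype were above all 3 labelled AID-null, the exact two-sided permutation p was 0.1, the smallest that 3 against 3 allows, and limma's log2 ratio was -2.69 (SE 0.856), unadjusted p 0.0103 and adjusted p 0.504. Epcam was at 1.34% ± 1.79 and 1.34% ± 1.61 (SD, n = 3 each), with an exact permutation p of 1 and a limma adjusted p of 0.884. For the Ocln windows the limma adjusted p was 0.896 and 0.916. In the second of them the clones were at 0%, 2.47% and 0% under the wildtype label. Under the AID-null label they were at 0%, 0% and 0.125%. Ratios of clones at 0% differ by read numbers alone, so this p says little of methylation. Cldn3 was at 0% in every clone over the positions tested. Its limma log2 ratio of 0.972 and adjusted p of 0.691 therefore follow read numbers alone and are no test of methylation. The labels give no separate origin for the clones, so the p-values of the other windows measure only the spread between these clones.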

How the data were processed

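RNA was sequenced in 4 libraries and DNA methylation in 10, with groups set by the sample titles. TopHat, Cufflinks, Bismark and methylKit were run on the mouse build mm9, per the submitters' processing notes; versions, filters and annotation are not given in the sources used here. RNA values are FPKM per gene as normalised and deposited by the authors. Per the file headers, the deposited RRBS files give the coverage of each CpG cytosine as a read count, with the percent of reads methylated and converted; no listed position is below a coverage of 10.

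RNA values were compared as differences of log2(FPKM + 1), pseudocount 1, called at 1, over genes that reached 1 FPKM in one of the libraries compared. There was 1 library per group, so no test was made. The RNA of the targeted gene is not reported here. Methylated reads were computed as coverage times percent. Positions of very high coverage (over the 99.9th percentile of their library, which was 683 to 983 reads) were not used, and levels needed at least 2 positions. RefSeq promoter windows of 300 bases (GRCm38.p6) were placed on mm9 positions where every covered position in the window fell on a CpG of the sequence, at least 6 positions matched, the match was the best on the chromosome, and neighbouring placed windows had the same displacement. Of 32851 windows 10381 were placed. The placement rests on this match and not on a genome of the files' build. Clones, 3 per label, were compared with limma 3.58.1 in R 4.3.3 (trended, Benjamini-Hochberg over 9115 windows with at least 3 shared positions) on log2((methylated + 1)/(unmethylated + 1)), and by exact permutation; the limma step was tested on simulated data. Other steps used Python 3.11.15.

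Named genes are the 10 members, the genes with the largest differences in lists of pathway genes and cell markers, and the 5 genes of nearest profile. Some list genes were named for their role after their values were seen: Tjp1, Magi3, Ctnnb1, Ctnna1, Ctnnd1, Grhl3, Zeb1, Col1a1, Pou5f1, Krt5, Krt14, Ptprc, C1qb, Cd14, Laptm5, Cd68, and, for their levels, Cldn12 and the claudins listed at 0. Of 146 list genes, members included, 144 were found, 5 by an older symbol. The members and lists were chosen with earlier results of these data known. Alternatives were other pseudocounts and scalings for RNA, and other coverage limits, position minimums, weightings, a replicate block and leaving out each clone for methylation.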

Additional observations from a re-analysis of the deposited data

Results flagged for a closer look

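For 3 of the 10 genes the difference between the labels had opposite signs in fibroblasts and at 3 weeks. Each state had 1 library per label, so the change of sign was not tested. That of Cdh1 depended on the scaling: its difference at 3 weeks was -0.03 as deposited, 0.14 with upper-quartile and 0.17 with median-of-ratios scaling, the same sign as in fibroblasts. The difference at 3 weeks minus that in fibroblasts, AID-null minus wildtype on the log2(FPKM + 1) scale, was -2.04 for Cdh1, from 2.01 in fibroblasts to -0.03 at 3 weeks. It was -1.51 for Epcam, from 1.21 to -0.30, and 1.51 for Ocln, from -0.70 to 0.80. All 3 genes were below 5 FPKM in both fibroblast libraries.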

How the results depend on the processing

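No RNA difference of at least 1 changed sign under the alternatives run. Tjp3, with a difference of the changes of 0.73, had -1.88 with a pseudocount of 0.1 and 1.41 with 5. Cdh1 at 3 weeks, -0.03 between the labels, had 0.14 and 0.17 under the 2 scalings. Among clones, no member passed limma's threshold in any setting, and with 1 clone left out the small log2 ratios of Epcam (-0.56) and of both Ocln windows (-0.45 and -0.51) reached 0.32, 0.09 and 1.04. The 1.04 was without clone 2 labelled wildtype, which left clones at 0% to 0.125%, so it mostly follows read numbers. All 10 genes stayed higher at 3 weeks under the AID-null label in each setting. With a pseudocount of 5, the median change under the wildtype label was 3.87 in place of 6.11, Ocln fell below 1 there (0.92), 0 in place of 3 genes were higher under the AID-null label in fibroblasts, and 1 in place of 3 had a reprogramming change lower by at least 1. With a pseudocount of 0.1, 1 gene in place of 0 was lower under the AID-null label in fibroblasts. Scaling by median ratios gave medians of 0.58 in place of 0.38 for the difference between labels at 3 weeks and for the difference of the changes. Among clones, the 2 windows called by limma became 1 with a coverage minimum of 30, 0 with unweighted CpG means, 0 with the clone number as a replicate block, and 0 to 0 with each clone left out in turn. Over all windows tested, the deviations of clones with the same number had correlations of 0.0105, 0.00266 and 0.0138. Clones with different numbers had -0.0359 to 0.0278. The labels do not say whether numbers pair the clones. Most windows were near 0%, where deviations are largely counting error, so these correlations cannot decide it. With a coverage minimum of 30, the Epcam difference from fibroblasts to clones under the wildtype label was -12.8 in place of -26.0 points. With unweighted CpG means, 5 in place of 3 member levels reached 10%, Cldn7 in the fibroblasts labelled AID-null at 18.2% and Epcam in clone 3 labelled AID-null at 24.7%. The RNA depth is unknown, and the Epcam levels at 3 weeks rest on 56 and 106 reads.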
